A study of Mus musculus with 46 samples.

Results

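Gene expression was compared between whole livers of old mice 2 h after partial hepatectomy (PH) and whole livers of old mice without surgery (0 h). The members are the 3 arrays labelled as old livers 2 h after PH, set against the 3 arrays labelled as old 0 h controls, out of 46 arrays in the series, over all 12422 probe sets that are not array controls. The mice were male CB6F1 hybrids of 25 to 27 months, and PH removed 70% of the liver under avertin and isoflurane. The 0 h livers had no operation, so this contrast holds the response to surgery and anaesthesia as well as that to tissue loss. Old PH livers at 1 h and 4 h (3 arrays each), old sham-operated livers at 2 h (2 arrays), and young mice of 5 to 6 months at 2 h after PH and at 0 h (3 arrays each) served for comparison. Old mice came from the National Institute on Aging and young mice from Jackson Laboratories, so age and supplier cannot be told apart. RNA was measured on the Affymetrix Murine Genome U74 version 2 array. All values are deposited RMA values on the log2 scale, where a difference of 1 is a doubling of the summarised signal. The labels do not say that each array came from its own mouse, so each p-value here reflects array-to-array spread, which may be technical. In whole tissue, fewer cells of a type and less RNA per cell cannot be told apart.

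After PH the remaining hepatocytes leave quiescence and later replicate their DNA until the organ regains its mass. The hours before DNA synthesis are known as the priming phase. In it, immediate early transcription factors are induced, cytokines act through IL-6 and STAT3, and the small remnant has to sustain blood glucose and plasma proteins for the whole body. Regeneration is known to be slower in old rodents.

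All 16 sham arrays of the series stood apart from the other arrays along principal component 1 (26.8% of the variance): sham arrays scored 7.75 to 30.26 and all others -34.13 to 6.27. Sham operation and this array set can therefore not be told apart. The bacterial spike-in controls, RNA that is no part of the liver, averaged 7.98, 8.52 and 7.94 on the old PH arrays, 9.47 and 9.37 on the old sham arrays, and 9.70, 9.74 and 10.61 on the old 0 h arrays. Spike-in level was thus lower on every PH array than on every 0 h array. Its part in the results was not tested beyond fits with that level as a covariate. PH replicate 2 often lay nearest to the controls: it was the lowest PH array in 196 of the probe sets called higher below, against 95 and 86 for replicates 1 and 3, and the highest in 151 of those called lower, against 58 and 64.

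At 2 h after PH, 650 probe sets passed the test against 0 h (limma, Benjamini-Hochberg adjusted p under 0.05). That is 5.23% of those tested, with 377 higher (3.03%) and 273 lower (2.2%). With 1 probe set per gene, 273 of 8251 genes were higher (3.31%) and 190 lower (2.3%), and the median difference over all genes was 0.003. Among the 650 passing probe sets, larger changes were more often increases: 101 rose by more than 1 log2 unit and 27 fell by more than 1. PH and 0 h arrays did not overlap in 623 of the 650. Over all probe sets, every PH array lay above every 0 h array in 11.9% and below in 11.3%. The count passing was 315 without PH replicate 1, 353 without PH replicate 3, 323 without 0 h replicate 2 and 322 without 0 h replicate 3. With spike-in level as a covariate 149 passed, 102 higher and 47 lower. Leaving old PH 0.5 h replicate 3 out of that fit, a choice made after seeing the data, gave 63, with 51 higher and 12 lower.

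**Figure D1:**
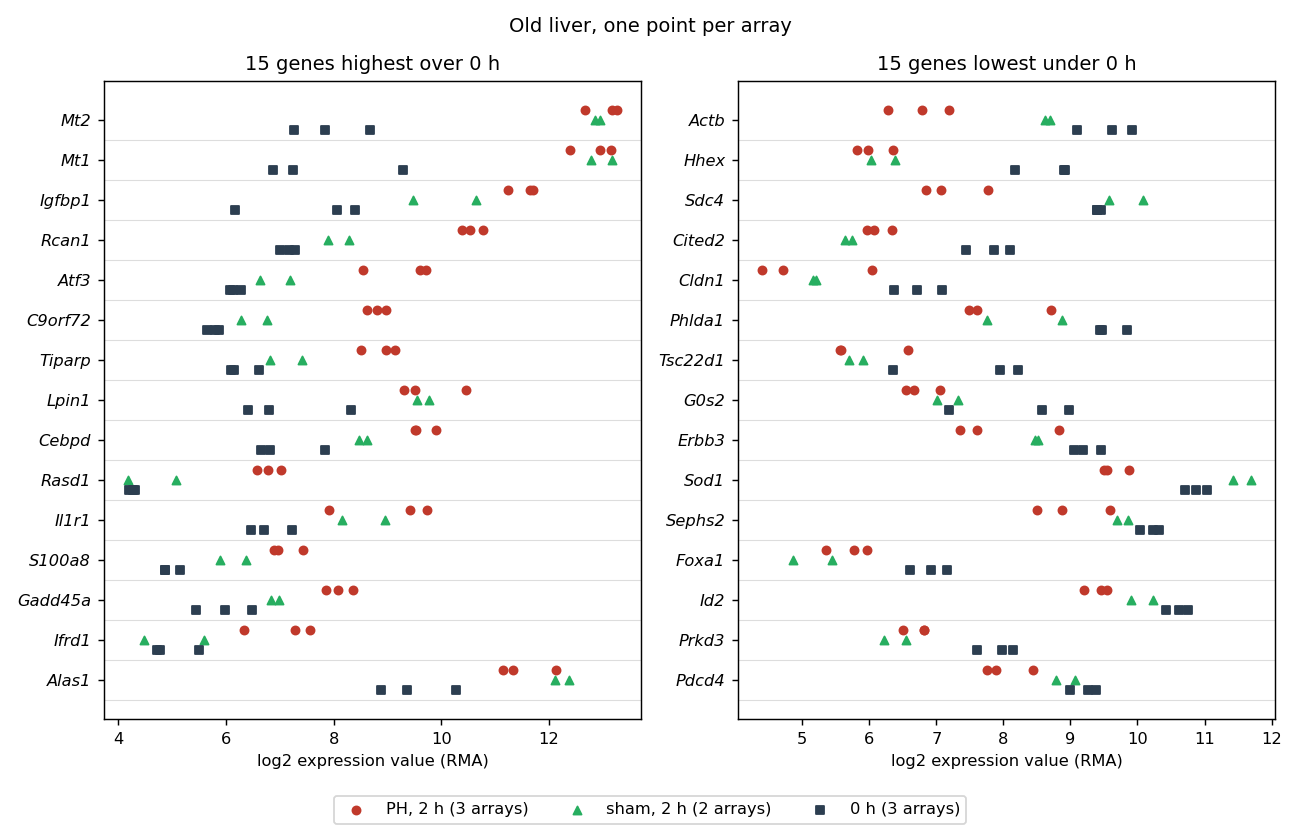
Log2 expression values (horizontal axis, RMA) of the 15 genes with the largest passing increase (left) and the 15 with the largest passing decrease (right) in old livers 2 h after PH against 0 h; each point is 1 array, with PH above, sham between and 0 h below for each gene. Mt1 and Mt2 lie above 12 in PH and sham arrays alike, whereas all PH values of Rcan1, C9orf72 and Rasd1 lie above the sham and 0 h values.

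The metallothionein genes had the largest increases. Mt2 read 13.25, 12.66 and 13.17 in PH livers, 12.95 and 12.85 in sham livers and 8.68, 7.84 and 7.26 in 0 h livers. Its difference between PH and 0 h was 5.10 ± 0.78 (SE, adjusted p = 6.6e-05), a 34.3-fold higher value. Metallothioneins are small cysteine-rich proteins that bind zinc and copper, and metals, glucocorticoids and cytokines are known to induce them. Mt1 read 12.94, 12.40 and 13.16 in PH livers, 13.16 and 12.78 in sham livers and 9.28, 7.25 and 6.87 in 0 h livers, a difference between PH and 0 h of 5.03 ± 0.84 (adjusted p = 0.000222). For both genes the PH values did not overlap with those at 0 h and did overlap with the sham values. PH minus sham was 0.13 for Mt2 (adjusted p = 0.937) and -0.14 for Mt1 (adjusted p = 0.936).

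Both genes lie on chromosome 8, and their promoter windows are printed because the 2 rose together. Each window of 300 bases spans the start that RefSeq gives on build GRCm38.p6, both on the plus strand. Capitals mark the metal response core, searched on both strands as TGCACNC or TGCGCNC, and in Mt2 also an AP-1 site, searched as TGANTCA.
Mt1, chr8:94178839-94179138: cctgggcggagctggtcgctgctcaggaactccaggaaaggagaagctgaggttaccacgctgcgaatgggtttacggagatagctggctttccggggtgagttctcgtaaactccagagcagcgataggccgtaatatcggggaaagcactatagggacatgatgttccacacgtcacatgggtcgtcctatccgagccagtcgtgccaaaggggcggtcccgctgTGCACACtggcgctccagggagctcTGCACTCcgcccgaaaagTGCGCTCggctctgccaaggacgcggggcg
Mt2, chr8:94172368-94172667: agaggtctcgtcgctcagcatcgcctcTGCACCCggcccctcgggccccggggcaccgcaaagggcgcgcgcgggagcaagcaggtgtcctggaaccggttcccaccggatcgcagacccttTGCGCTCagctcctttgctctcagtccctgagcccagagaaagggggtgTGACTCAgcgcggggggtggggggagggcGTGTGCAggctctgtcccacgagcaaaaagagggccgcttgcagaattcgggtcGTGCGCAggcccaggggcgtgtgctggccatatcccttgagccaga
The Mt1 window holds 3 metal response cores, and the Mt2 window holds 4 and 1 AP-1 site. Of 32851 promoter windows, 25.7% hold at least 1 metal response core and 7.81% an AP-1 site. A match describes letters and not a bound site.

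Of 21 measured genes of metal and oxidative stress defence 5 were higher and 2 lower (33.3% passing, against 5.61% over all genes). Hmox1, heme oxygenase, read 11.28, 10.12 and 10.12 in PH livers, 10.02 and 9.90 in sham livers and 8.98, 8.94 and 8.78 in 0 h livers. It was 1.60 ± 0.29 higher than at 0 h (adjusted p = 0.000547), without overlap. Sod1, cytosolic superoxide dismutase, read 9.54, 9.87 and 9.50 in PH livers, 11.69 and 11.42 in sham livers and 10.70, 10.87 and 11.03 in 0 h livers (-1.23 ± 0.26, adjusted p = 0.00299). It lay below the values of both other groups, and with the spike-in covariate its difference was -0.44 (adjusted p = 0.563). Alas1, the first and rate-limiting enzyme of heme synthesis, read 11.14, 11.33 and 12.12 in PH livers, 12.36 and 12.12 in sham livers and 10.27, 8.89 and 9.37 in 0 h livers (2.02 ± 0.45, adjusted p = 0.0058). Its adjusted p was 0.0575 without 0 h replicate 2, 0.053 without PH replicate 3. With spike-in level as a covariate it was 0.145.

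Igfbp1 encodes a secreted binding protein of insulin-like growth factors that insulin is known to repress. It read 11.71, 11.64 and 11.23 in PH livers, 10.64 and 9.47 in sham livers and 8.39, 8.06 and 6.16 in 0 h livers. The PH values overlapped with neither group, and the difference from 0 h was 3.99 ± 0.57 (adjusted p = 2.39e-05). A second probe set of the gene read 4.33, 4.47 and 4.46 in PH livers and 4.42, 4.35 and 4.51 in 0 h livers, with overlap (adjusted p = 0.98). The promoter window, on the plus strand of GRCm38.p6, is shown because it holds the insulin response core CAAAACA (capitals), which 6.28% of windows hold.
Igfbp1, chr11:7197537-7197836: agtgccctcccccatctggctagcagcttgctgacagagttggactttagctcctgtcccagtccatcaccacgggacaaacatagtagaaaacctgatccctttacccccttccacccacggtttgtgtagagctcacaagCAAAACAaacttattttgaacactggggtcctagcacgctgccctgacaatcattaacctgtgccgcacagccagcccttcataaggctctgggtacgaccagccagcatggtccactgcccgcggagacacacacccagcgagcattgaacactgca

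Igfbp1 belongs to 24 measured genes of glucose output and of the glucocorticoid and cAMP responses. Of these 7 were higher and 0 lower (29.2% passing, against 5.61% over all genes). Lpin1, a phosphatidate phosphatase and transcriptional coactivator, read 9.31, 9.52 and 10.46 in PH livers, 9.77 and 9.55 in sham livers and 8.33, 6.41 and 6.81 in 0 h livers (2.58 ± 0.49, adjusted p = 0.000902). Its PH and 0 h values did not overlap. Slc38a2, a neutral amino acid transporter, was 1.46 ± 0.29 higher (adjusted p = 0.00124) in 1 of its 4 probe sets. Fkbp5, a glucocorticoid-induced cochaperone of steroid receptors, was 1.58 ± 0.41 higher (adjusted p = 0.0196) and passed in 3 of the 6 fits that left out 1 array. The gluconeogenic enzymes gave less. G6pc, the catalytic subunit of glucose-6-phosphatase, read 11.94, 12.37 and 11.89 in PH livers, 10.96 and 11.34 in sham livers and 11.59, 10.96 and 10.67 in 0 h livers (0.99 ± 0.30, adjusted p = 0.0459), and passed in 1 of those 6 fits. Pck1, PEPCK, read 9.56, 10.40 and 10.19 in PH livers and 10.26, 9.50 and 10.04 in 0 h livers, with overlap (0.12 ± 0.20, adjusted p = 0.817), and the difference was negative without 0 h replicate 2 or PH replicate 2. With the spike-in covariate Lpin1 and Slc38a2 passed, and Fkbp5 and G6pc did not (adjusted p = 0.198 and 0.76). Lpin1 and Slc38a2 no longer passed when old PH 0.5 h replicate 3 was left out of that fit.

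Rcan1, an inhibitor of the phosphatase calcineurin, shared the smallest adjusted p with C9orf72. It read 10.39, 10.77 and 10.54 in PH livers, 8.29 and 7.89 in sham livers and 7.28, 7.18 and 6.997 in 0 h livers. The difference was 3.42 ± 0.26 from 0 h (adjusted p = 6.23e-11), a 10.7-fold higher value, and 2.48 from sham (adjusted p = 2.44e-06), without overlap in either case. RefSeq gives 2 starts for this gene on chromosome 16, minus strand of GRCm38.p6, and the array does not tell which was used. The window of the downstream start is printed because it holds a cAMP response element, TGACGTCA, and an AP-1 site (capitals), and 1.79% of all windows hold that element. The window of the upstream start holds neither and has 1 metal response core. The windows of Fos and Atf3 were searched in the same way and are not printed. That of Fos held no metal response core, cAMP response element, AP-1 site or insulin response core. That of Atf3 held 1 metal response core and none of the others.
Rcan1, downstream start, chr16:92400029-92400328: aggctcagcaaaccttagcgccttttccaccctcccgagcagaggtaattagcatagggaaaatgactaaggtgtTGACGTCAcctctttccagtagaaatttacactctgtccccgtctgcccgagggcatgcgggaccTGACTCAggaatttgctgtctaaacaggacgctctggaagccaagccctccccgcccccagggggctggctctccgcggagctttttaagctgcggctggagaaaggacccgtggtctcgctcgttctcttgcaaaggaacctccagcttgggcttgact

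Rcan1 is 1 of 24 measured feedback inhibitors of the early response. Of these 7 were higher and 0 lower (29.2% passing against 5.61% over all genes, median difference 0.716). The count was 4 without 0 h replicate 2 or 0 h replicate 3, and 2 with the spike-in covariate. Btg2, an antiproliferative factor, read 10.82, 10.69 and 10.31 in PH livers, 9.17 and 9.30 in sham livers and 8.93, 8.44 and 8.54 in 0 h livers (1.97 ± 0.34, adjusted p = 0.000284), and gave 1.33 with the spike-in covariate (adjusted p = 0.0972). It passed when old PH 0.5 h replicate 3 was left out of that fit. Its PH values lay above both other groups. Socs3, the inhibitor of IL-6 receptor signalling, read 7.97, 8.25 and 8.51 in PH livers, 8.62 and 8.58 in sham livers and 7.15, 6.35 and 7.07 in 0 h livers (1.39 ± 0.31, adjusted p = 0.00476). Here the sham values were the highest, and the adjusted p was 0.0575 without 0 h replicate 2. Dusp1, a phosphatase that switches off MAP kinases, was 1.49 ± 0.42 higher (adjusted p = 0.03) and passed in 1 of the 6 fits without 1 array, and not with the spike-in covariate (adjusted p = 0.647).

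Immediate early transcription factors had the highest share of passing members: 16 of 28 measured were higher and 0 lower, with a median difference of 0.752. That share was 57.1%, against 5.61% over all genes. Leaving out 1 array left 11 to 14, and the spike-in covariate left 7. Atf3, a stress-induced factor of the ATF and CREB family, read 9.60, 9.71 and 8.54 in PH livers, 7.19 and 6.64 in sham livers and 6.28, 6.13 and 6.08 in 0 h livers. It was 3.12 ± 0.54 higher than at 0 h (adjusted p = 0.000346) and 2.37 higher than in sham livers (adjusted p = 0.00747), without overlap. This was 1 of its 3 probe sets, and its difference with the spike-in covariate was 2.09 (adjusted p = 0.112). With old PH 0.5 h replicate 3 left out of that fit, Atf3 passed. Klf6, a Krüppel-like factor, read 8.54, 7.81 and 8.22 in PH livers, 6.50 and 6.35 in sham livers and 6.42, 6.36 and 6.00 in 0 h livers (1.93 ± 0.28, adjusted p = 2.3e-05). Its sham and 0 h values overlapped, and all PH values lay above them. Myc, which drives growth and ribosome production, read 5.88, 6.34 and 5.93 in PH livers, 4.80 and 4.05 in sham livers and 4.32, 3.80 and 4.58 in 0 h livers (1.81 ± 0.38, adjusted p = 0.00266). Klf6 and Myc passed with the spike-in covariate too.

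The C/EBP factors, which govern hepatocyte and acute phase genes, moved unequally. Cebpd read 9.53, 9.50 and 9.90 in PH livers, 8.62 and 8.46 in sham livers and 7.84, 6.83 and 6.66 in 0 h livers (2.54 ± 0.40, adjusted p = 0.000102). Cebpb read 10.79, 10.96 and 10.82 in PH livers, 10.43 and 10.48 in sham livers and 9.94, 9.02 and 9.20 in 0 h livers (1.47 ± 0.26, adjusted p = 0.000415). Both were highest in the PH livers, without overlap. Cebpa read 10.56, 10.67 and 10.56 in PH livers and 11.28, 11.06 and 10.94 in 0 h livers, and its difference of -0.50 ± 0.20 did not pass (adjusted p = 0.156).

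Of the AP-1 and EGR genes best known from early regeneration, Jun and Junb passed at 2 h and Fos and Egr1 did not. Fos read 7.16, 7.47 and 6.77 in PH livers, 4.74 and 3.72 in sham livers and 6.68, 4.84 and 4.93 in 0 h livers (1.65 ± 0.92, adjusted p = 0.343). All PH values lay above the 0 h values, of which replicate 1 was high. Egr1 had the same array high, with 8.89, 8.74 and 8.83 in PH livers and 9.64, 7.68 and 7.18 in 0 h livers, and the groups overlapped (0.65 ± 0.57, adjusted p = 0.589). Jun read 7.30, 7.22 and 7.52 in PH livers, 6.95 and 6.88 in sham livers and 6.57, 6.55 and 6.64 in 0 h livers (0.76 ± 0.22, adjusted p = 0.0398), and passed in 1 of the 6 fits without 1 array. Junb was 0.82 ± 0.19 higher (adjusted p = 0.00729), and 0.58 without 0 h replicate 2 (adjusted p = 0.104). Nr4a1, an orphan nuclear receptor of the early response, was 1.43 ± 0.37 higher (adjusted p = 0.0203) and passed in 3 of those fits. The differences of Fos and Egr1 were negative with the spike-in covariate, -0.52 and -0.55 (adjusted p = 0.951 and 0.884). Neither was negative once old PH 0.5 h replicate 3 was left out of that fit, and neither passed there. On that array Fos read 10.75 and the spike-in controls averaged 7.68. With the spike-in covariate the adjusted p was 0.759 for Jun, 0.544 for Junb and 0.843 for Nr4a1.

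Gadd45a, Gadd45b, Gadd45g and Mdm2 were among the growth arrest genes that passed as higher, and most measured members of that list did not pass. Of 17 measured growth arrest genes and p53 targets 5 were higher and 0 lower (29.4% passing against 5.61% over all genes, median difference 0.082). The count was 3 without 0 h replicate 2, PH replicate 1 or PH replicate 3. Adjusted for spike-in level, it was 2. The Gadd45 genes encode stress sensors that slow the cell cycle and act on MAP kinases. Gadd45a read 7.86, 8.37 and 8.08 in PH livers, 6.99 and 6.84 in sham livers and 5.99, 5.45 and 6.49 in 0 h livers (2.12 ± 0.37, adjusted p = 0.000346). Gadd45b read 8.61, 8.62 and 7.82 in PH livers, 7.33 and 7.20 in sham livers and 6.73, 6.72 and 6.65 in 0 h livers (1.65 ± 0.20, adjusted p = 1.51e-06). In both genes the PH livers were above both other groups. Gadd45g was 1.75 ± 0.48 higher than at 0 h (adjusted p = 0.0267) but passed in 1 of the 6 fits without 1 array. Mdm2, the ubiquitin ligase of p53, was 0.66 ± 0.12 higher (adjusted p = 0.000419). With the spike-in covariate the adjusted p was 0.268 for Gadd45g and 0.132 for Mdm2.

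Cdkn1a encodes the cell cycle inhibitor p21, and its 2 probe sets disagreed. The brighter one read 8.59, 8.56 and 8.38 in PH livers and 8.20, 8.17 and 8.22 in 0 h livers (0.31 ± 0.11, adjusted p = 0.0981). The other read 8.69, 8.73 and 8.24 in PH livers and 6.85, 7.18 and 7.23 in 0 h livers (1.47 ± 0.27, adjusted p = 0.000586). Neither overlapped between the groups. Ccnd1, the G1 cyclin D1, read 7.20, 6.88 and 7.51 in PH livers and 7.05, 6.92 and 6.70 in 0 h livers, with overlap (0.30 ± 0.18, adjusted p = 0.384). Of 44 measured G1 regulators and replication genes 1 passed (2.27%, against 5.61% over all genes). It was the proliferation marker Mki67 at 0.43 ± 0.12 (adjusted p = 0.0288, and 0.607 with the spike-in covariate). The count was 0 without 0 h replicate 2, 0 h replicate 3 or PH replicate 1, and 2 without PH replicate 2. A second probe set of Mki67 gave 0.145 (adjusted p = 0.661).

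Of 24 measured genes of IL-6 and STAT3 signalling 5 were higher and 0 lower (3.31% and 2.3% over all genes). The number passing was 2 without 0 h replicate 2, 0 h replicate 3, PH replicate 1 or PH replicate 3. It was also 2 with the spike-in covariate. Pim3, a kinase of the PIM family, read 9.57, 9.92 and 9.96 in PH livers, 9.98 and 9.76 in sham livers and 8.38, 7.98 and 8.24 in 0 h livers (1.62 ± 0.24, adjusted p = 3.51e-05). Its PH and sham values overlapped, and all lay above those at 0 h. Il1r1, the interleukin-1 receptor, read 9.73, 7.92 and 9.42 in PH livers, 8.96 and 8.16 in sham livers and 7.23, 6.71 and 6.47 in 0 h livers (2.22 ± 0.53, adjusted p = 0.0102). Its adjusted p was 0.0594 without 0 h replicate 3, 0.0859 without PH replicate 1, 0.0589 without PH replicate 3. With spike-in level as a covariate it was 0.121.

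Acute phase genes encode plasma proteins of the inflammatory response, and several varied widely between the PH arrays. Of 23 measured 1 was higher, the protease inhibitor Serpina3n, at 1.22 ± 0.28 (adjusted p = 0.00584, and 0.0511 without PH replicate 1). Lcn2, the iron-siderophore binder lipocalin 2, read 10.48, 7.49 and 10.51 in PH livers, 10.03 and 8.82 in sham livers and 6.60, 6.11 and 5.60 in 0 h livers. All PH values lay above the 0 h values, with replicate 2 far below the other PH arrays, and the difference of 3.39 ± 1.16 did not pass (adjusted p = 0.0846). Without PH replicate 2 it was 4.39 (adjusted p = 0.0319). Saa2, serum amyloid A2, read 11.63, 9.72 and 11.74 in PH livers, 12.24 and 11.57 in sham livers and 7.88, 10.60 and 8.37 in 0 h livers, with overlap between PH and 0 h (2.08 ± 1.07, adjusted p = 0.296). The list had 0 calls without PH replicate 1 and 2 without PH replicate 2. Its 1 call as reported is 4.35% of the list, against 5.61% over all genes.

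Of 35 measured NF-kB components, targets and chemokines 3 were higher and 0 lower (8.57% passing, against 5.61% over all genes). Each of the 3 rose by less than 1 log2 unit. Il1a, interleukin-1 alpha, read 6.71, 6.92 and 6.50 in PH livers, 5.95 and 6.03 in sham livers and 6.05, 6.04 and 5.96 in 0 h livers (0.70 ± 0.14, adjusted p = 0.00131). The PH values lay above those of both other groups. Rela, the p65 subunit of NF-kB, was 0.44 ± 0.10 higher (adjusted p = 0.00476) in 1 of its 2 probe sets, and the inhibitor Nfkbib was 0.40 ± 0.10 higher (adjusted p = 0.018) and passed in 3 of the 6 fits without 1 array. With the spike-in covariate the adjusted p was 0.24 for Il1a and 0.391 for Rela.

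Several of the strongest increases lay outside these pathways. C9orf72, whose product acts in autophagy and vesicle traffic, read 8.97, 8.81 and 8.62 in PH livers, 6.77 and 6.28 in sham livers and 5.66, 5.81 and 5.87 in 0 h livers. It was 3.02 ± 0.23 higher than at 0 h (adjusted p = 6.23e-11), 8.12-fold, and 2.27 higher than in sham livers (adjusted p = 2.26e-06). Tiparp, an ADP-ribosyltransferase that represses the aryl hydrocarbon receptor, read 9.14, 8.98 and 8.50 in PH livers, 7.41 and 6.82 in sham livers and 6.61, 6.16 and 6.09 in 0 h livers (2.59 ± 0.26, adjusted p = 3.74e-08). Neither gene overlapped between PH and the other groups. Ahr, that receptor, was 1.69 ± 0.31 higher (adjusted p = 0.000643, and 0.0657 with the spike-in covariate). Cyp1a1, its classic target, was 0.36 ± 0.10 higher (adjusted p = 0.0225) in 1 of 2 probe sets, passed in 2 of the 6 fits without 1 array and had an adjusted p of 0.117 with the spike-in covariate.

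Rasd1, a small GTPase named for its induction by dexamethasone, read 6.57, 7.02 and 6.78 in PH livers, 5.08 and 4.19 in sham livers and 4.28, 4.32 and 4.20 in 0 h livers (2.52 ± 0.32, adjusted p = 3.65e-06). Ifrd1, a transcriptional coregulator, read 7.29, 7.55 and 6.34 in PH livers, 5.60 and 4.49 in sham livers and 5.51, 4.77 and 4.72 in 0 h livers (2.06 ± 0.33, adjusted p = 0.000102). In both genes every PH array lay above every sham and 0 h array. Inhbb, the beta B subunit of activin, read 5.47, 5.62 and 5.51 in PH livers, 4.41 and 4.45 in sham livers and 4.28, 4.03 and 4.34 in 0 h livers (1.32 ± 0.17, adjusted p = 3.65e-06). It is 1 of 36 measured genes of TGF-beta, activin and BMP signalling. Of these 2 were higher and 3 lower (13.9% passing, against 5.61% over all genes). Passing members fell to 2 without 0 h replicate 2, 0 h replicate 3 or PH replicate 1. Rasd1, Ifrd1 and Inhbb also passed with the spike-in covariate.

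Of the 15 genes with the largest increases, 12 passed in every fit that left out 1 array, and 11 passed after adjustment for spike-in level. Of the 15 with the largest decreases, 7 passed in every such fit and 3 with the spike-in covariate, Hhex, Cited2 and Prkd3. With old PH 0.5 h replicate 3 left out of the covariate fit, Mt1, Lpin1, Cebpd and Cited2 no longer passed, and Atf3 did.

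Transcription factors of the hepatocyte fell more often than they rose: of 29 measured 7 were lower and 1 higher, Ahr, with a median difference of -0.248. The share passing was 27.6%, against 5.61% over all genes. The number passing was 5 without 0 h replicate 2, and 4, all lower, with the spike-in covariate. Hhex, a homeobox factor needed for liver development, read 5.98, 6.35 and 5.82 in PH livers, 6.39 and 6.02 in sham livers and 8.90, 8.92 and 8.18 in 0 h livers. Its difference from 0 h was -2.62 ± 0.31 (adjusted p = 9.55e-07), a 6.14-fold lower value, and its PH and sham values overlapped. Foxa2, a pioneer factor at hepatocyte enhancers, read 7.18, 7.14 and 7.09 in PH livers, 8.03 and 7.96 in sham livers and 8.09, 8.50 and 8.17 in 0 h livers. It differed by -1.12 ± 0.16 from 0 h (adjusted p = 3.45e-05) and by -0.86 from sham (adjusted p = 0.00191), without overlap in either case. Foxa1, its relative, read 5.96, 5.76 and 5.36 in PH livers, 5.44 and 4.86 in sham livers and 6.61, 7.16 and 6.92 in 0 h livers (-1.20 ± 0.36, adjusted p = 0.0455), and passed in 0 of the 6 fits without 1 array and not with the spike-in covariate (adjusted p = 0.456).

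Other large decreases concerned genes of the cell surface and of signalling. Sdc4, a heparan sulfate proteoglycan of focal adhesions, read 7.07, 7.77 and 6.85 in PH livers, 9.58 and 10.08 in sham livers and 9.39, 9.39 and 9.46 in 0 h livers. It differed by -2.18 ± 0.46 from 0 h (adjusted p = 0.0032) and by -2.60 from sham (adjusted p = 0.00105), without overlap, but by -0.91 from 0 h with the spike-in covariate (adjusted p = 0.524). Cited2, a coregulator that competes for CBP and p300, read 5.96, 6.34 and 6.07 in PH livers, 5.74 and 5.63 in sham livers and 7.44, 8.10 and 7.86 in 0 h livers (-1.67 ± 0.32, adjusted p = 0.00103). Its sham values were the lowest. Prkd3, a protein kinase D, read 6.50, 6.82 and 6.82 in PH livers, 6.55 and 6.21 in sham livers and 8.14, 7.98 and 7.61 in 0 h livers (-1.20 ± 0.19, adjusted p = 0.000137). Pdcd4, an inhibitor of translation initiation, differed by -1.18 ± 0.20 (adjusted p = 0.000282, and 0.0909 with the spike-in covariate).

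Of 25 measured genes of junctions and adhesion 4 were lower and 2 higher (24% passing, against 5.61% over all genes). Passing members fell to 3 without 0 h replicate 2 or PH replicate 1 and to 2 without PH replicate 3. Cldn1, a tight junction protein, read 4.70, 6.04 and 4.40 in PH livers, 5.15 and 5.21 in sham livers and 6.71, 7.08 and 6.37 in 0 h livers (-1.67 ± 0.36, adjusted p = 0.00447). Its adjusted p was 0.0544 without PH replicate 3. With spike-in level as a covariate it was 0.0592. Gja1, the gap junction protein connexin 43, went the other way, with 7.17, 7.49 and 7.24 in PH livers, 6.60 and 5.64 in sham livers and 5.92, 5.42 and 5.34 in 0 h livers (1.74 ± 0.24, adjusted p = 1.85e-05) in 1 of its 2 probe sets. Of 41 measured growth factors and receptors 2 were higher, Igfbp1 and the urokinase receptor Plaur, and 1 lower (7.32% passing, against 5.61% over all genes). The lower one was Erbb3, a neuregulin receptor, at -1.30 ± 0.31 (adjusted p = 0.00979), which passed in 3 of the 6 fits without 1 array. With the spike-in covariate its adjusted p was 0.346. A second probe set of Erbb3 gave -0.47 and did not pass (adjusted p = 0.0797). Hgf, the main hepatocyte mitogen, read 3.05, 3.14 and 2.97 in PH livers and 3.26, 3.11 and 2.94 in 0 h livers, with overlap (adjusted p = 0.844). These values lie far below the array medians of 6.22 to 6.33, so a change in Hgf could have been missed.

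By their tested probe sets, the 2 cytoplasmic actin genes gave opposite values. Actb, beta-actin, read 6.78, 7.18 and 6.28 in PH livers, 8.62 and 8.69 in sham livers and 9.09, 9.62 and 9.91 in 0 h livers (-2.79 ± 0.51, adjusted p = 0.000508), and its second probe set gave -3.52 ± 0.65 (adjusted p = 0.000595). The array's control probe set at the 3' end of Actb, which was not tested, did not follow. It read 12.79, 12.75 and 12.64 in PH livers, 11.70 and 11.27 in sham livers, and 12.54, 12.61 and 12.63 in 0 h livers. The control probe set at the 5' end, also not tested, did not follow either. It read 11.72, 11.89 and 11.79 in PH livers and 11.78, 11.59 and 11.58 in 0 h livers, with overlap. With the spike-in covariate the tested Actb difference was -1.12 (adjusted p = 0.271). Actg1, gamma-actin, read 11.93, 11.35 and 11.01 in PH livers, 10.44 and 8.95 in sham livers and 9.96, 10.02 and 9.43 in 0 h livers (1.63 ± 0.40, adjusted p = 0.0122). Its adjusted p was 0.0796 without 0 h replicate 3, 0.0931 without PH replicate 1. With spike-in level as a covariate it was 0.443.

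Of 35 measured genes of the actin cytoskeleton 4 were higher and 3 lower (20% passing, against 5.61% over all genes). Passing members fell to 4 without 0 h replicate 2, 0 h replicate 3, PH replicate 1 or PH replicate 3. Tpm4, a tropomyosin, read 9.10, 8.65 and 8.79 in PH livers, 7.86 and 7.66 in sham livers and 7.90, 7.58 and 7.24 in 0 h livers (1.27 ± 0.18, adjusted p = 2.15e-05). Its PH values lay above both other groups. It passed in all 6 fits without 1 array and with the spike-in covariate. When old PH 0.5 h replicate 3 was left out of the covariate fit, it did not pass.

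Among lists of metabolic and secretory genes of the hepatocyte, the share that passed was 0% for bile acid synthesis and for fatty acid oxidation. It was 10.7% for secreted proteins and 20.8% for amino acid and urea metabolism, against 5.61% over all genes. No order of the lists is read from these shares, since most counts were small and moved when 1 array was left out. None passed among 17 measured genes of bile acid synthesis and transport (2 without PH replicate 2) or 18 of fatty acid oxidation. Cyp7a1, which catalyses the first step from cholesterol to bile acids, read 5.52, 6.41 and 6.89 in PH livers and 7.40, 6.19 and 5.86 in 0 h livers, with overlap (adjusted p = 0.858). Of 28 secreted proteins 3 were lower, each by less than 0.5 log2 units, and 1 passed without 0 h replicate 2 or PH replicate 3. Alb, albumin, read 13.68, 13.56 and 13.36 in PH livers and 13.96, 13.90 and 13.77 in 0 h livers, without overlap (-0.34 ± 0.09, adjusted p = 0.0189). It passed in 3 of the 6 fits without 1 array and not with the spike-in covariate (adjusted p = 0.699). Of 24 genes of amino acid and urea metabolism 3 were higher and 2 lower, with 0 without PH replicate 3 and at most 3 in any fit without 1 array. The urea cycle enzyme Arg1 differed by -0.52 ± 0.15 (adjusted p = 0.035) and passed in 1 of those fits.

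Of 23 genes of sterol and fatty acid synthesis 2 were higher and 1 lower, with 0 without 0 h replicate 2 or PH replicate 3 and 1 without 0 h replicate 3. Srebf1, the regulator of fatty acid synthesis genes, differed by -0.69 ± 0.18 (adjusted p = 0.0195) and passed in 2 of the 6 fits without 1 array. Of 30 genes of drug metabolism 1 was higher and 1 lower, with 0 without 0 h replicate 3 or PH replicate 1 and 1 without 0 h replicate 1, 0 h replicate 2 or PH replicate 3. Of 22 genes of hypoxia and glycolysis 2 were higher and 1 lower, with 1 without PH replicate 1. Shares passing were 13.0% for sterol and fatty acid synthesis, 6.67% for drug metabolism and 13.6% for hypoxia and glycolysis, against 5.61% over all genes. Pfkfb3, which makes the activator of phosphofructokinase, was 0.78 ± 0.14 higher (adjusted p = 0.000604, and 0.177 with the spike-in covariate).

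Among 18 measured clock genes 4 were higher and 1 lower (27.8% passing, against 5.61% over all genes). Passing members fell to 3 without 0 h replicate 2, 0 h replicate 3 or PH replicate 1. Cry2, a clock repressor, read 7.68, 7.50 and 7.43 in PH livers, 6.57 and 6.94 in sham livers and 6.94, 6.77 and 6.76 in 0 h livers (0.71 ± 0.11, adjusted p = 0.000102). Its PH values lay above both other groups. Cry1, its paralog, read 6.08, 6.64 and 6.14 in PH livers, 6.24 and 6.16 in sham livers and 6.70, 7.28 and 7.04 in 0 h livers (-0.72 ± 0.20, adjusted p = 0.0297) in 1 of 3 probe sets, and passed in 2 of the 6 fits without 1 array. Csnk1e, a kinase of clock proteins, was 0.80 ± 0.15 higher (adjusted p = 0.000883).

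Of 42 measured ribosome biogenesis genes 4 were higher and 0 lower (9.52% passing, against 5.61% over all genes). The number was 2 without 0 h replicate 2, 0 h replicate 3, PH replicate 1 or PH replicate 3. It was 9 without PH replicate 2. Rcl1, which acts in processing of ribosomal RNA of the small subunit, read 10.55, 10.71 and 10.94 in PH livers, 9.73 and 9.18 in sham livers and 9.13, 9.09 and 8.84 in 0 h livers (1.71 ± 0.17, adjusted p = 2.94e-08). It overlapped with neither group. Nhp2, of the box H/ACA particles that modify ribosomal RNA, was 0.64 ± 0.10 higher (adjusted p = 0.000102). Of 22 measured chaperones 3 were higher (13.6% passing, against 5.61% over all genes). Hspb8, a small heat shock protein, led at 0.96 ± 0.16 (adjusted p = 0.000251). Of these chaperones 1 passed without 0 h replicate 1, 0 h replicate 3, PH replicate 1 or PH replicate 3. Without PH replicate 2 there were 5. Of 25 genes of the unfolded protein response 1 was higher (4% passing, against 5.61% over all genes). This was the kinase Eif2ak3 at 0.71 ± 0.20 (adjusted p = 0.0303). The list had 0 calls without PH replicate 3 or any single 0 h array and 3 without PH replicate 2.

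In the 9 lists of markers of other cells 0 to 2 genes passed per list, and the share over all genes was 5.61%. Of 16 neutrophil markers 2 were higher, S100a8 and S100a9, the subunits of calprotectin. S100a8 read 6.90, 7.42 and 6.97 in PH livers, 6.38 and 5.89 in sham livers and 5.15, 4.88 and 4.87 in 0 h livers (2.13 ± 0.63, adjusted p = 0.041). It passed in 0 of the 6 fits without 1 array, and S100a9 passed in 1, the fit without 0 h replicate 1. The summed level of the neutrophil markers on the log2 scale was 10.62 to 10.74 in PH livers and 10.33 to 10.54 in 0 h livers. None of 19 Kupffer cell or macrophage markers passed (1 without 0 h replicate 1 or PH replicate 2), with summed levels of 11.81 to 12.57 in PH livers and 11.18 to 11.8 in 0 h livers. None passed among 11 B or plasma cell markers (2 without PH replicate 2), 15 T or NK cell markers and 8 pancreas markers.

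In each of 4 further marker lists 1 gene passed. They were Sox18 of 18 endothelial markers at -0.38, Col4a1 of 17 stellate or fibroblast markers at 1.01, Krt8 of 10 cholangiocyte markers at 1.32 and Rhag of 6 erythroid markers at 0.42. They passed in 4, 4, 5 and 1 of the 6 fits without 1 array. Krt8 is also a keratin of hepatocytes, and it gave 0.93 without PH replicate 1 (adjusted p = 0.118). Summed cholangiocyte markers were 11.23 to 12.23 in PH livers and 10.75 to 10.95 in 0 h livers. The part of these cells in the results above was not tested. RMA values carry no detection call, so the absence of a marker could not be read.

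**Figure D2:**
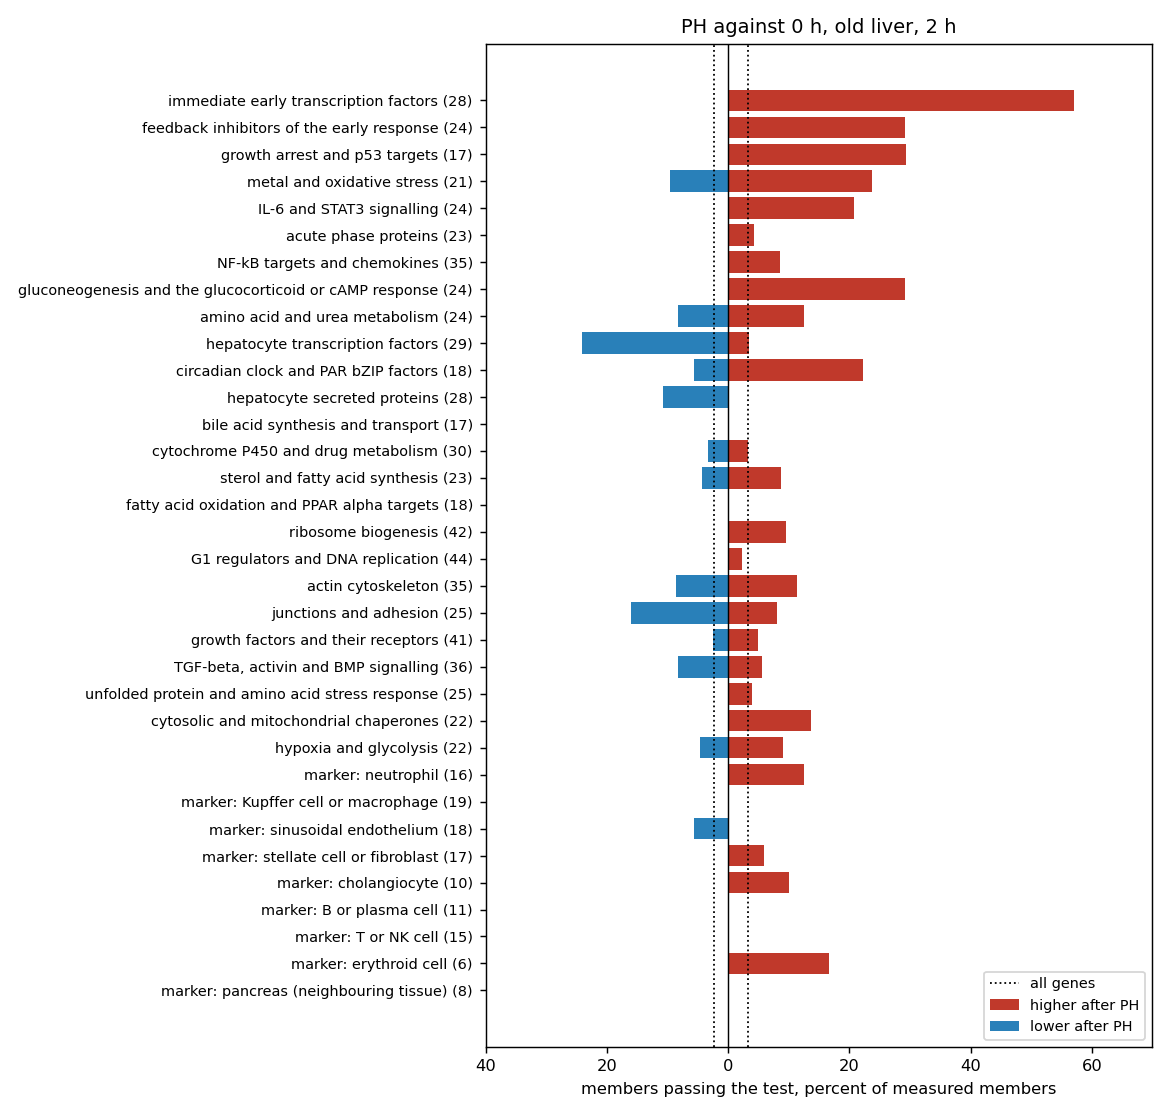
Share of the measured members of each gene list (percent, horizontal axis) that passed as higher (right, red) or lower (left, blue) in old livers 2 h after PH against 0 h; the number measured is in parentheses and dotted lines give the shares over all genes, 3.31% higher and 2.3% lower. The longest bar to the right is that of immediate early transcription factors (16 of 28), and the longest to the left that of hepatocyte transcription factors (7 of 29).

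The old sham livers at 2 h had an operation without tissue loss, but since sham operation and the sham array set cannot be told apart, their values are given side by side with those of PH livers. The comparisons share arrays. PH differed from sham in 2318 probe sets (18.7%), with 953 higher (7.67%) and 1365 lower (11%). Sham differed from 0 h in 1550 (12.5%), with 975 higher (7.85%) and 575 lower (4.63%), or 741 and 675 after each array was centred on its median. Without sham replicate 2 these counts were 210 and 165, and without 0 h replicate 2 sham differed from 0 h in 590. Of the 28 immediate early factors 9 were higher and 1 lower in PH than in sham livers (8.1% and 11% over all genes). In sham livers 3 were higher and 0 lower than at 0 h (7.3% and 4.91% over all genes). Of the 29 hepatocyte transcription factors 0 were higher and 1 lower in PH than in sham livers, and 0 were higher and 7 lower in sham livers than at 0 h. Of the 24 genes of glucose output and the glucocorticoid and cAMP responses 2 were higher and 1 lower in PH than in sham livers, and 8 were higher and 1 lower in sham livers than at 0 h.

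For Mt1, Mt2, Lpin1, Alas1, Socs3, Pim3 and Gadd45g, PH minus sham lay between -0.71 and 0.13 and did not pass. Hhex, Cited2 and Prkd3 were low after sham as well, with differences of sham minus 0 h of -2.46, -2.12 and -1.53 (adjusted p = 2.9e-05, 0.000326 and 2.94e-05). Rcan1, C9orf72, Tiparp, Rasd1, Atf3, Ifrd1, Klf6, Myc and Rcl1 passed as higher in PH livers against both groups. Dusp6, a phosphatase of the MAP kinase ERK, read 9.71, 9.93 and 9.64 in PH livers, 7.81 and 7.47 in sham livers and 9.14, 8.27 and 8.08 in 0 h livers. It passed against sham (2.12, adjusted p = 0.00173) and not against 0 h (1.26 ± 0.40, adjusted p = 0.0572).

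Between 1 h and 2 h after PH few probe sets passed, although 1304 had an unadjusted p under 0.05 (limma). A small count of calls does not show that few genes changed. Against 1 h, 65 probe sets passed at 2 h (0.523%), with 38 higher (0.306%) and 27 lower (0.217%). The count was 21 without PH 1 h replicate 3, 26 and 41 without PH 2 h replicates 1 and 3, 106 without PH 2 h replicate 2 and 134 without PH 1 h replicate 2. Deviations of same-numbered arrays of these 2 groups correlated at 0.138, 0.236 and 0.205, and those of different-numbered arrays at -0.29 to 0.155. With the replicate number as a block 2 probe sets passed, both lower. None passed with these groups alone in the fit (smallest adjusted p = 0.151), the genes named below included. C9orf72 read 8.97, 8.81 and 8.62 at 2 h and 7.19, 7.66 and 7.56 at 1 h (1.33, adjusted p = 0.00671). Jun read 7.30, 7.22 and 7.52 at 2 h and 8.36, 8.11 and 8.57 at 1 h (-1.002, adjusted p = 0.0249). Neither overlapped between the times. Tnfaip3, a feedback inhibitor of NF-kB, read 5.39, 5.16 and 5.23 at 2 h and 7.37, 5.64 and 6.95 at 1 h (-1.39, adjusted p = 0.0153). Hhex read 5.98, 6.35 and 5.82 at 2 h and 7.46, 8.02 and 7.45 at 1 h (-1.60, adjusted p = 0.0107).

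At 0.5 h the 3 old PH arrays differed greatly among themselves. Mt2 read 13.25, 8.26 and 8.23, Lcn2 read 12.54, 6.10 and 5.79 and Fos read 4.48, 4.40 and 10.75. Replicate 1 was thus high in Mt2 and Lcn2, and replicate 3 in Fos.

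Against 2 h, 228 probe sets passed at 4 h (1.84%), with 89 higher (0.716%) and 139 lower (1.12%). The count was 354, 59 and 101 without PH 2 h replicates 1, 2 and 3, and 133 and 71 without PH 4 h replicates 1 and 3. It was 32 with the spike-in covariate and 35 with these groups alone in the fit. The spike-in controls averaged 9.47, 10.31 and 9.64 on the 4 h arrays and 7.98, 8.52 and 7.94 on the 2 h arrays, without overlap. G6pc read 9.90, 10.40 and 10.12 at 4 h and 11.94, 12.37 and 11.89 at 2 h (-1.93, adjusted p = 0.000399). Sdc4 read 9.12, 9.84 and 8.97 at 4 h and 7.07, 7.77 and 6.85 at 2 h (2.08, adjusted p = 0.0127), and its 4 h values lay around those at 0 h. Cdkn1a, by its brighter probe set, read 9.33, 9.31 and 9.22 at 4 h and 8.59, 8.56 and 8.38 at 2 h (0.78, adjusted p = 0.000117). Pdk4, a kinase that inhibits pyruvate dehydrogenase, read 9.72, 7.48 and 8.16 at 4 h and 6.61, 6.68 and 6.95 at 2 h (1.71, adjusted p = 0.0096). Of the 22 measured chaperones 0 were higher and 5 lower at 4 h than at 2 h (0.848% and 1.41% over all genes). This count was not taken with the spike-in covariate or with these groups alone. The chaperone Hspa4, at -0.79 (adjusted p = 0.00132), passed in neither of those fits (adjusted p = 0.0913 and 0.0789). The 4 h difference of Sdc4 was 0.96 with the spike-in covariate and did not pass (adjusted p = 0.459). Cdkn1a, G6pc and Pdk4 passed with it (adjusted p = 0.00918, 0.0497 and 0.0497), and Pdk4 did not with these groups alone (adjusted p = 0.168).

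**Figure D3:**
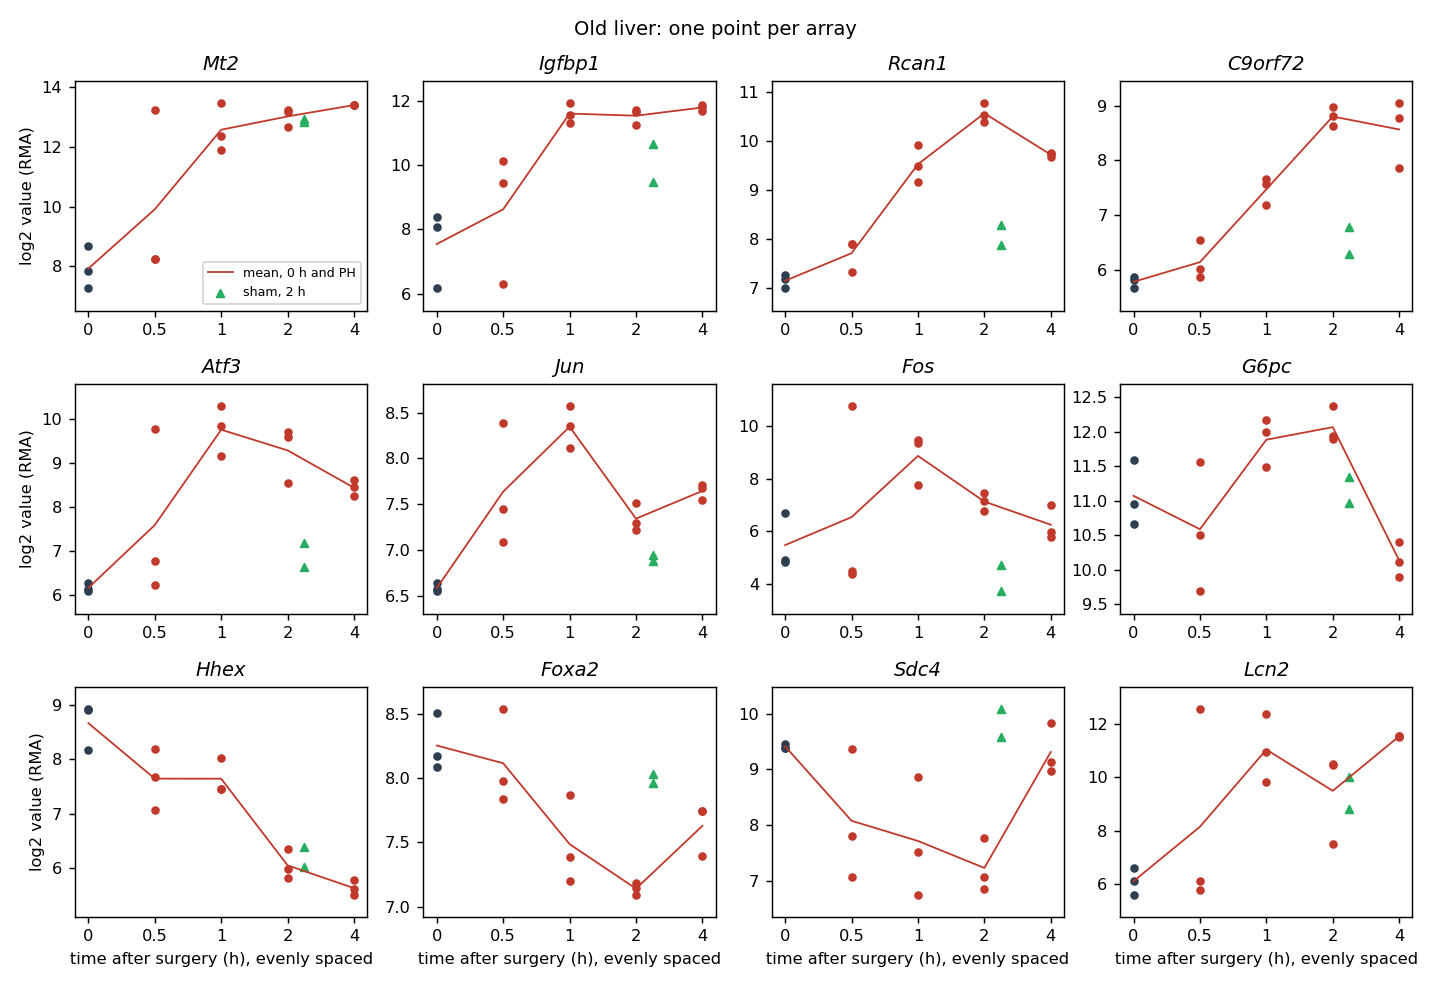
Log2 values (vertical axis, RMA) of 12 genes in old livers at 0 h and at 0.5, 1, 2 and 4 h after PH (horizontal axis, evenly spaced); points are arrays, the line joins the means and green triangles are the 2 sham arrays at 2 h. The means of Jun and Fos are highest at 1 h and that of Rcan1 at 2 h, and the mean of Sdc4 is lowest at 2 h.

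No probe set passed the test of an age difference in the 2 h change, old minus young (limma, 0 of 12422; smallest adjusted p = 0.0734; 652 at an unadjusted p under 0.05). Leaving out old PH replicate 2 gave 4 calls, and leaving out old 0 h replicate 1 or young PH replicate 2 gave 1. The young changes rest on arrays of their own. Of these, young 0 h replicate 3 scored 6.27 on principal component 1, against -4.09 and -10.5 for replicates 1 and 2. Its Lpin1 and Hhex values, given below, also stood apart from theirs. Without it no probe set passed the test of an age difference either. Its part in the young changes of single genes was not tested. Of the 377 probe sets called higher in old livers 92% also had a positive difference in young livers, and of the 273 called lower 97.4% had a negative one, against 66.1% with the same direction over all probe sets. The median change of the 377 was 0.66 in old and 0.41 in young livers, and that of the 273 was -0.50 in old and -0.33 in young livers. Since both sets were chosen on the old values, these medians are a description. The spike-in controls averaged 8.54, 8.05 and 9.05 on the young PH arrays and 9.18, 10.43 and 8.79 on the young 0 h arrays. These values overlap, with a lower mean after PH, as in old livers. The part of spike-in level in the shared direction was not tested.

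All 30 genes with the largest old changes moved in the same direction in young livers. Mt2 changed by 5.10 in old and 4.80 in young livers, Igfbp1 by 3.99 in old and 4.21 in young livers and Rcan1 by 3.42 in old and 3.01 in young livers. Hhex read 5.98, 6.35 and 5.82 in old PH livers and 7.44, 7.37 and 6.77 in young PH livers, with 8.90, 8.92 and 8.18 in old and 8.996, 8.78 and 7.89 in young 0 h livers. The difference of its changes, -1.26 ± 0.44, did not pass (adjusted p = 0.811). Lpin1 changed by 2.58 in old and 1.03 in young livers, and its young 0 h values of 8.55, 8.84 and 10.54 all lay above the old 0 h values (difference of changes 1.55 ± 0.70, adjusted p = 0.906). Fos changed by 1.65 in old and 4.14 in young livers (adjusted p of the difference = 0.922). Lcn2 read 10.48, 7.49 and 10.51 in old PH livers and 6.95, 6.29 and 7.24 in young PH livers, with 6.60, 6.11 and 5.60 in old and 4.57, 4.94 and 4.92 in young 0 h livers (adjusted p of the difference = 0.977).

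**Figure D4:**
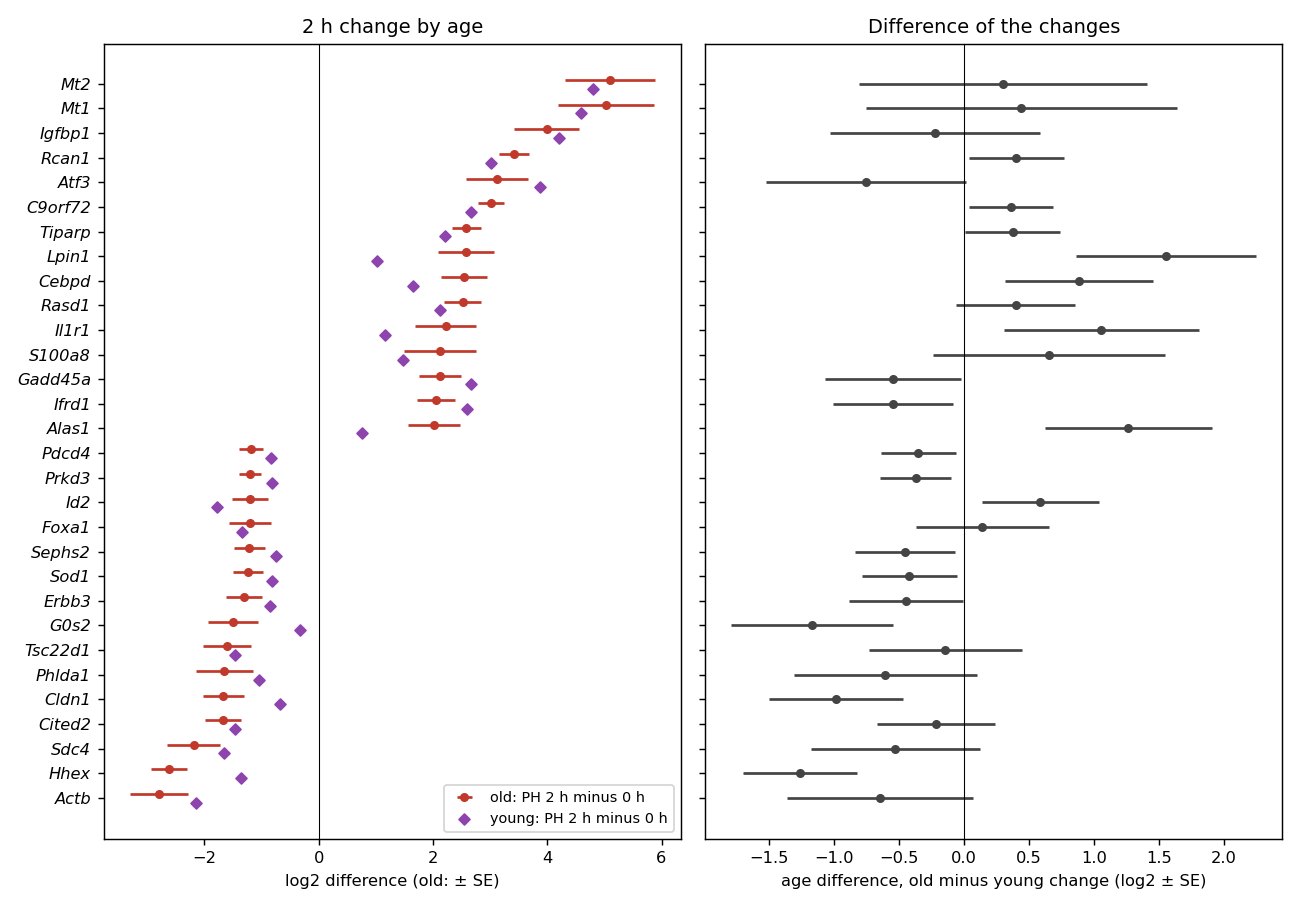
Left: log2 change from 0 h to 2 h after PH (horizontal axis) of the 30 genes with the largest changes in old livers, with old changes ± SE (red) and young changes (purple, below). Right: the difference of the changes, old minus young, ± SE; the highest is Lpin1 at 1.55 and the lowest Hhex at -1.26, and none of the 30 passed the test.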

How the data were processed

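RNA of whole mouse livers was measured on 46 arrays in 18 groups. The authors deposited log2 expression values per probe set, summarised by RMA per the submitters' processing notes, whose version is not given in the sources used here. Values ran from 1.92 to 14.2. Of 12488 probe sets 66 array controls were left out. Of the 12422 tested, 10833 had 1 symbol, 396 had several and 1193 were unnamed, which covered 8251 symbols. The brightest probe set by mean over all arrays stood for a gene.

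Group means were fitted over all 46 arrays by lmFit and eBayes of limma (version 3.58.1, under R 4.3.3), with Benjamini-Hochberg adjustment and a threshold of 0.05. On simulated data for PH against 0 h, over 12422 probe sets, 96% of changes of 1 log2 unit and 100% of changes of 2 were recovered, with 13 false among 209 calls. The simulated noise was normal and independent, with 1 SD per probe set in all groups. It held no outlying array and no difference in spike-in level, so these rates need not hold for the measured arrays. Named were the 15 highest and 15 lowest genes, up to 8 per direction in each other comparison, up to 4 per gene list and a set of well-known genes. Members and lists were chosen with earlier results of these data known.

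The labels give no pairing. Deviations of same-numbered arrays correlated at 0.138, 0.236 and 0.205 between PH at 2 h and at 1 h, and at -0.098, 0.189 and -0.23 between PH and 0 h. Alternatives were centring, a filter on dim probe sets, other variance moderation, the compared groups alone, no sham arrays, a spike-in covariate, a replicate block and leaving out each array. Promoter sequences are those of RefSeq, build GRCm38.p6. The number of arrays limits the precision.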

Additional observations from a re-analysis of the deposited data

Results flagged for a closer look

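Zbtb16, a zinc finger transcription factor that glucocorticoids are known to induce, changed in opposite directions in every array of the 2 ages. It read 8.01, 8.28 and 8.92 in old PH livers against 5.57, 6.58 and 7.10 in old 0 h livers, a difference of 1.99 ± 0.47 (limma adjusted p = 0.00979). In young livers it read 8.35, 7.80 and 7.80 after PH against 8.83, 8.67 and 8.53 at 0 h. The old change exceeded the young change by 2.68, and the test of that difference did not pass (limma adjusted p = 0.594). The old call had an adjusted p of 0.077 without 0 h replicate 1 and of 0.0678 without PH replicate 3. It was 0.0736 with the spike-in covariate. A second probe set of Zbtb16 read 6.51, 6.30 and 6.29 in old PH livers against 6.37, 6.18 and 6.66 in old 0 h livers, with overlap (-0.04 ± 0.11, limma adjusted p = 0.914).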

How the results depend on the processing

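Over 161 named genes and their alternatives, 1760 values kept their direction and side of the threshold, 446 kept their direction but no longer passed, 17 newly passed and 21 changed direction. Those 21 are of 12 genes that did not pass as reported, and none of the 21 passed. With the spike-in covariate they were -0.515 for Fos, -0.551 for Egr1, -0.013 for A4galt, -0.011 for Mcm5, -0.237 for Adi1, -0.144 for Reln and 0.034 for Hgf. With that covariate and without old PH 0.5 h replicate 3 they were -0.095 for Kcnj9, -0.034 for A4galt, -0.032 for Reln, -0.212 for Adi1, -0.020 for Ccnd1 and 0.035 for Hgf. Without 1 array the values ran from -0.525 to 0.247 for Cyp7a1, from -0.103 to 0.362 for Pck1, from -0.038 to 0.209 for Adi1, from -0.298 to 0.126 for Smarca2 and from -0.132 to 0.027 for Hgf. For PH against 0 h, 256 probe sets passed with the compared groups alone, 149 with the spike-in covariate, 63 with that covariate and without old PH 0.5 h replicate 3 (an alternative chosen after seeing the data), and 206 with the replicate block. Leaving out 1 array gave 315 to 705. For PH against sham the counts were 708 with the groups alone, 1437 with the spike-in covariate, 997 with the replicate block and 210 to 2803 without 1 array. For sham against 0 h they were 417 alone, 968 with the block and 165 to 1972 without 1 array. The blocked fits that hold sham arrays rest on 1 residual degree of freedom and are not read. For PH at 2 h against 1 h they were 0 alone, 2 with the block, 34 without the 16 sham arrays and 21 to 134 without 1 array. For 4 h against 2 h they were 35 alone, 32 with the spike-in covariate, 3 with the block and 59 to 354 without 1 array. The age difference had 1 call after centring, 1 with the groups alone, 1 with the block and 0 to 4 without 1 array. The labels do not pair the arrays of these comparisons. Deviations of same-numbered arrays correlated at 0.138, 0.236 and 0.205 for PH at 2 h and 1 h, and at -0.109, 0.212 and 0.24 for 4 h and 2 h. Whether any arrays are paired is not known. The causes were not tested.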
